A study of Arabidopsis thaliana with 28 samples.

Results

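The CYP71B genes of Arabidopsis thaliana were followed in shoots and roots over the day after mechanical wounding. CYP71B is a subfamily of the cytochromes P450, and its members here are all probe sets of the ATH1 microarray that the platform annotation gives exactly 1 gene with a symbol starting with CYP71B. There were 19 such members among 22810 probe sets. The family was selected on its measured signals in shoots, which were lower soon after wounding than at 24 h, so that difference is described below without a test. The RefSeq table of assembly TAIR10.1 lists 36 genes with such a symbol, and 1 further probe set that names 2 of them together, CYP71B19 and CYP71B20, was left out by the rule.

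The plants were wild-type accession Col-0, grown on Murashige and Skoog medium at 24 °C with 16 h of light a day. All were wounded with pins on day 16, after 3 h of light, and shoots and roots were harvested at 0.25, 0.5, 1, 3, 6, 12 and 24 h. Each of the 14 groups had 2 arrays, which makes 28 in all, and the number of arrays limits the precision. Whether the 2 replicates of a group were separate cultures is not stated, so p-values cover only the spread between these arrays, and that spread may be technical. It is not stated either whether leaves, roots or both were punctured, and unwounded plants were not analysed here. At 3, 6 and 12 h the hour of the day had moved on along with the time since wounding, and the 2 cannot be told apart, while the 24 h plants were taken at the hour at which the treatment began. In whole organs, fewer cells of a type and less RNA per cell cannot be told apart either.

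Cytochromes P450 are heme enzymes of the endoplasmic reticulum that insert an oxygen atom into small molecules, with electrons passed on by NADPH-cytochrome P450 reductase. Plants use them to make and break down hormones, pigments, volatiles and defence compounds. The CYP71B subfamily is known in Arabidopsis for PAD3 (CYP71B15), which carries out the last step of camalexin synthesis and is on no probe set named here. Among the members, CYP71B6 converts indole-3-acetonitrile, an intermediate on the camalexin route, and CYP71B31 acts on linalool in flowers. CYP71B27 is a transcribed pseudogene in RefSeq, and CYP71B30P carries the P of a pseudogene in its symbol. For the other members no substrate is given here. Many members lie side by side in the genome as close paralogues, and whether a probe set also binds a neighbour's transcript was not tested.

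Values are the deposited signals, on a linear scale, and differences are on the log2(signal + 10.7) scale, so changes of weak signals are understated. Of the 19 members, 12 passed the filter on low signals, which required that in at least 1 group both signals exceeded the 40th percentile of their arrays. That percentile lay between 21.4 and 27.1 on shoot arrays and between 25.9 and 29.0 on root arrays. CYP71B16, CYP71B21, CYP71B25, CYP71B27, CYP71B30P, CYP71B31 and CYP71B38 did not pass and were not tested. The highest signal of any of these on any array was 18.3, for CYP71B38 in shoots at 0.5 h. CYP71B36 passed through the shoot groups at 12 and 24 h alone, with 37.2 and 37.6 at 12 h and 79.3 and 66.4 at 24 h. CYP71B5, CYP71B22, CYP71B24 and CYP71B35 also passed in shoots alone, and CYP71B37 in roots alone. For a member that passed through 1 organ alone, the filter favours a difference between the organs.

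The organ labels were matched by the markers. The summed signal of 5 shoot markers (PRK, RCA, SBPASE, LHCB4.1 and LHCB4.2) was 17980 to 28650 on shoot arrays and 223 to 591 on root arrays. Among the 5 root markers, PRX72, a class III peroxidase, averaged 1.47 ± 1.202 in shoots and 357 ± 43.5 in roots (SD, n = 14 arrays each). The shoot arrays taken at 24 h differed from the others in a sign of RNA quality, with actin 3-prime to 5-prime signal ratios of 4.15 and 6.17, while the ratio was 2.54 to 3.53 on the early shoot arrays and 2.22 to 3.68 at 3, 6 and 12 h. The rule that defined the family asked for the early level in shoots to be tested against 3, 6 and 12 h, without the 24 h arrays.

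In shoots most of the CYP71B genes tested had lower signals in the first hour after wounding than later in the day. Over the mean of 0.25, 0.5 and 1 h against the mean of 3, 6 and 12 h, all 12 tested members had a log2 difference below 0. The share of all probe sets below 0 was not computed, so this count is only a description. The limma fit called 8 of the 12 members lower and 0 higher, with 28.6% of all 16263 probe sets tested called lower and 16.7% called higher. CYP71B36, 1 of the 8, was tested only because it passed the filter at 12 and 24 h, where it is high, so the filter favours that direction for it, and leaving it aside gives 7 of 11. The median difference of the 12 was -0.43 (log2), beside -0.08 for all probe sets tested. CYP71B26 and CYP71B28 had the largest differences, while CYP71B35 (-0.20, adjusted p = 0.194) and CYP71B37 (-0.10, adjusted p = 0.376) did not pass. This comparison shares its early arrays with the difference to 24 h that led to the choice of the family, so it is not independent of that choice.

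**Figure D1:**
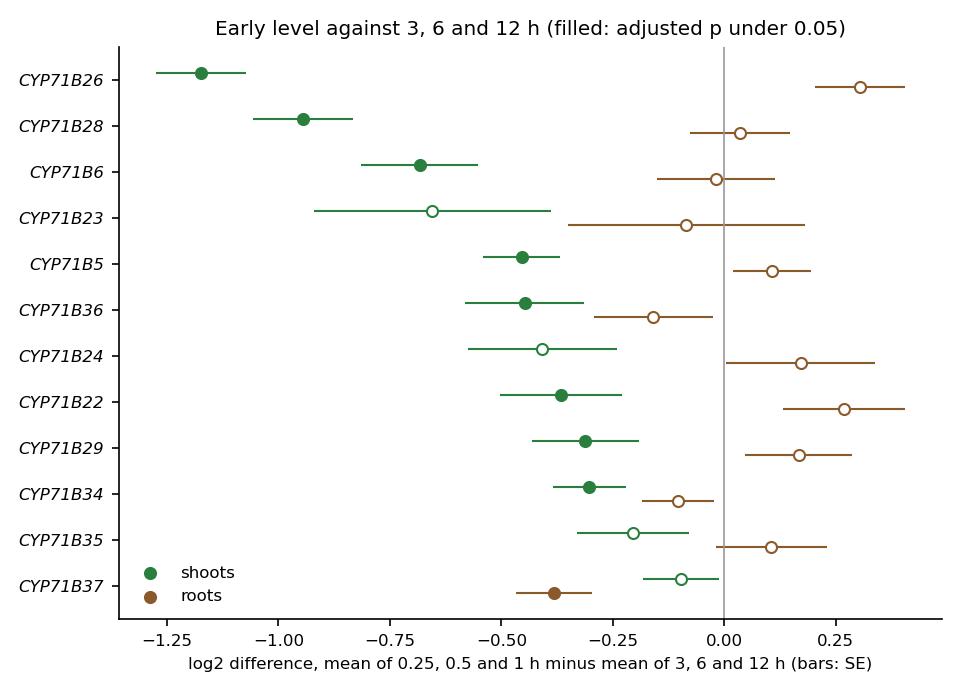
Log2 difference of the mean of 0.25, 0.5 and 1 h minus the mean of 3, 6 and 12 h for the 12 tested CYP71B genes, in shoots and in roots, with bars of 1 standard error and filled points for an adjusted p under 0.05. In shoots every gene lies below 0, with CYP71B26 at -1.17 and CYP71B28 at -0.95, and in roots the values lie between -0.38 and 0.30.

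CYP71B26, a P450 with no substrate given here, moved most. Its shoot signals on the 2 arrays of each group were 62.5 and 90.4 at 0.25 h, 63.4 and 59.99 at 0.5 h, 124 and 147 at 1 h, 375 and 343 at 3 h, 283 and 341 at 6 h, 84.7 and 69.7 at 12 h, and 228 and 156 at 24 h. The 4 arrays at 3 and 6 h were the highest of the 14, and those at 12 h were within the range of the first hour. Over 6 arrays each, the mean signal was 91.1 ± 36.7 early and 249 ± 137 at 3, 6 and 12 h (SD), a log2 difference of -1.17 ± 0.10 (SE, adjusted p = 2.48e-09). The difference depended on the later time chosen. It was -1.93 ± 0.14 against 3 h (adjusted p = 8.37e-10) and -1.73 ± 0.14 against 6 h (adjusted p = 2.11e-09), but 0.14 ± 0.14 against 12 h (adjusted p = 0.471).

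CYP71B28 was lower early with no overlap between the groups. Its signals were 79.8 and 125 at 0.25 h, 85.1 and 94.4 at 0.5 h, 74.0 and 64.1 at 1 h, 162 and 127 at 3 h, 176 and 186 at 6 h, 212 and 194 at 12 h, and 216 and 192 at 24 h. All 6 early arrays lay below all 6 arrays at 3, 6 and 12 h, and the signal was highest at 12 and 24 h. The log2 difference was -0.95 ± 0.11 (adjusted p = 3.96e-07).

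CYP71B5 was the other member without overlap, beside 8.24% of all probe sets tested with all 6 early arrays below all 6 later ones and 5.29% with all 6 above. Its signals were 73.4 and 78.8 at 0.25 h, 82.5 and 74.5 at 0.5 h, 76.5 and 61.2 at 1 h, 116 and 95.7 at 3 h, 96.3 and 100.2 at 6 h, 102 and 126 at 12 h, and 138 and 128 at 24 h. The 24 h arrays were the highest of the 14. The log2 difference, -0.45 ± 0.09 (adjusted p = 0.00018), was smaller than that of CYP71B28.

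CYP71B6, the enzyme that uses indole-3-acetonitrile, had its highest mean at 12 h. Its shoot signals were 125 and 264 at 0.25 h, 133 and 137 at 0.5 h, 136 and 113 at 1 h, 175 and 180 at 3 h, 213 and 218 at 6 h, 342 and 374 at 12 h, and 382 and 246 at 24 h. Replicate 2 at 0.25 h stood above the other early arrays and above both arrays at 3 and 6 h, so the groups overlap. The log2 difference was -0.68 ± 0.13 (adjusted p = 0.000224), and by single later time it was -0.27 ± 0.19 against 3 h (adjusted p = 0.288) and -1.24 ± 0.19 against 12 h (adjusted p = 1.89e-05).

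CYP71B34 and CYP71B36, which have CYP71B35 between them in the genome, were also lower early. CYP71B34 had 116 and 103 at 0.25 h, 122 and 141 at 0.5 h, 102 and 108 at 1 h, 144 and 139 at 3 h, 135 and 163 at 6 h, 136 and 147 at 12 h, and 212 and 184 at 24 h. Its groups overlap through 1 array at 0.5 h, and its log2 difference was -0.30 ± 0.08 (adjusted p = 0.00417). CYP71B36 was near the lowest levels measured, with 6.12 to 30.1 on the 6 early arrays and 17.0 to 37.6 on the 6 arrays at 3, 6 and 12 h, and stood higher at 24 h, at 79.3 and 66.4. Its log2 difference of -0.45 ± 0.13 (adjusted p = 0.00876) did not pass on the log2(signal + 1) scale, where the adjusted p was 0.15. Since it passed the filter through 12 and 24 h alone, its call is no support for a low early level. CYP71B35, with 17.0 to 36.5 early and 24.9 to 43.2 at 3, 6 and 12 h, had overlapping groups.

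The calls of CYP71B22 and CYP71B29 were the least stable of the 8. CYP71B22 had 32.9 to 61.1 on the early arrays and 33.6 to 93.4 at 3, 6 and 12 h, a log2 difference of -0.37 ± 0.14 (adjusted p = 0.0324). Its call ended in 9 of 36 alternatives, with adjusted p-values of 0.107 under quantile normalization, 0.0871 for log2(signal + 1), 0.0996 without shoots 0.25 h replicate 2, 0.0931 without 0.5 h replicate 1, 0.0815 without 1 h replicate 2, 0.124 without 3 h replicate 2, 0.0585 and 0.0544 without replicates 1 and 2 at 6 h, and 0.14 without 12 h replicate 2. CYP71B29 had 13.3 to 33.3 early and 20.6 to 45.2 at 3, 6 and 12 h, a log2 difference of -0.31 ± 0.12 (adjusted p = 0.0378). Its call ended in 10 of 35 alternatives. The adjusted p of CYP71B29 was 0.125 under quantile normalization, 0.0503 with no filter and 0.0914 with shoot arrays alone. Leaving out 1 shoot array gave 0.0819 without 0.25 h replicate 2, 0.1 without 0.5 h replicate 1, 0.129 without 1 h replicate 2, 0.199 without 3 h replicate 1, 0.0606 and 0.0682 without replicates 1 and 2 at 6 h, and 0.0954 without 12 h replicate 2. CYP71B5, CYP71B6, CYP71B26, CYP71B28 and CYP71B34 passed in all 36.

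The 2 shoot arrays at 0.25 h differed widely for CYP71B23 and CYP71B24, which have 1 gene between them. CYP71B23 had 6.39 and 68.1 at 0.25 h, 16.4 and 19.5 at 0.5 h, 20.9 and 11.6 at 1 h, 20.5 and 24.2 at 3 h, 37.5 and 38.6 at 6 h, 39.8 and 79.9 at 12 h, and 79.5 and 46.8 at 24 h. CYP71B24 had 34.5 and 106 at 0.25 h, 52.6 and 57.1 at 0.5 h, 34.7 and 29.4 at 1 h, 42.7 and 38.5 at 3 h, 60.8 and 72.0 at 6 h, 95.0 and 126 at 12 h, and 115 and 121 at 24 h. Replicate 2 at 0.25 h was above every other early array for both genes. The log2 differences were -0.66 ± 0.27 for CYP71B23 (adjusted p = 0.0553) and -0.41 ± 0.17 for CYP71B24 (adjusted p = 0.0523). Without that array both genes passed, with adjusted p-values of 9.16e-06 and 0.000274. Both also passed without 12 h replicate 1, at 0.0315 for CYP71B23 and 0.044 for CYP71B24. For CYP71B24 leaving out a root array gave 0.0479 without either replicate at 0.25 h and 0.0495 and 0.0497 without replicates 1 and 2 at 12 h.

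**Figure D2:**
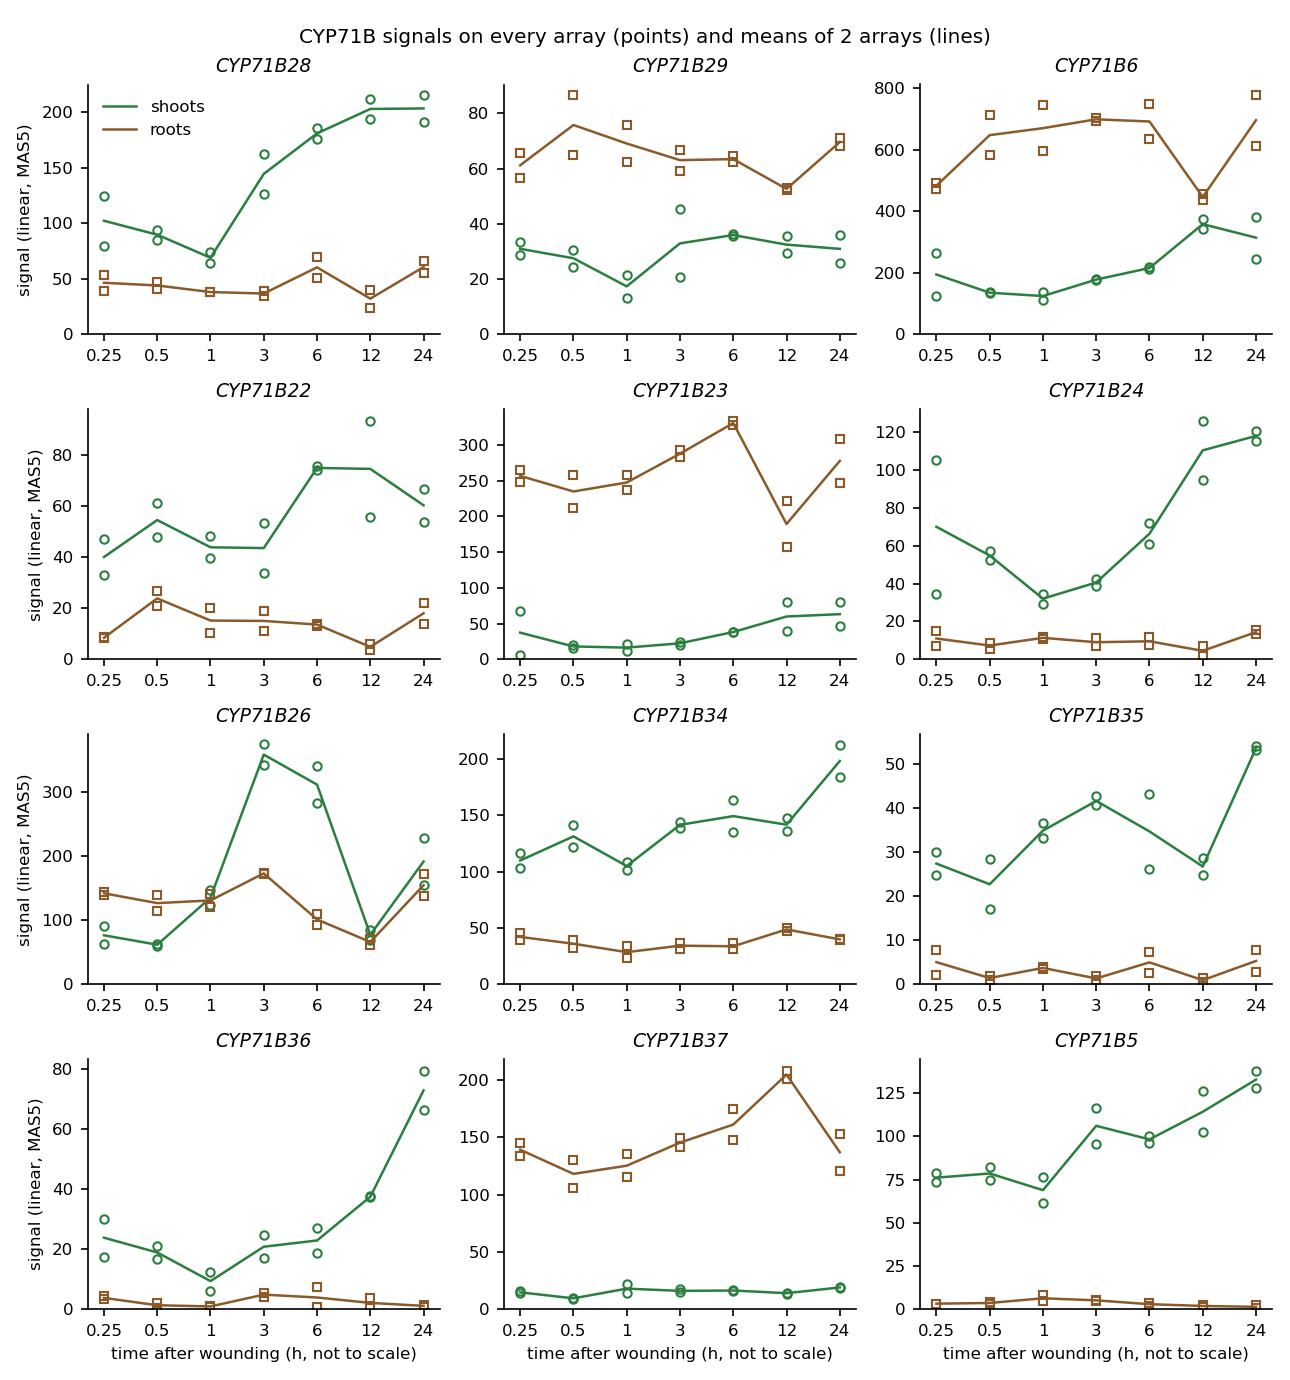
Deposited signal of the 12 tested CYP71B genes on every array against time after wounding, in shoots and in roots, with lines through the group means of 2 arrays. Shoot signals of CYP71B26 are highest at 3 and 6 h, and those of CYP71B28, CYP71B5 and CYP71B36 at 12 or 24 h.

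Each early time was also set against the mean of 3, 6 and 12 h. At 0.25 h limma called 5 members lower and 0 higher, with 21.5% of all probe sets tested lower and 12.6% higher. At 0.5 h it called 5 lower and 0 higher (21.2% and 13.3% of all), and at 1 h 8 lower and 0 higher (22.4% and 15.4%). CYP71B36 is 1 of the 8 at 1 h. It passed the filter through 12 and 24 h alone, and 12 h is part of the reference, so its call is no support. CYP71B23, which was not called at 0.25 h (-0.38 ± 0.38, adjusted p = 0.479), had 0.72 without 0.25 h replicate 1 and -1.48 without replicate 2, so its direction there rests on which array is kept. Other members not called at 0.25 h also had 1 array on each side of their mean signal at 3, 6 and 12 h. These were CYP71B6 (125 and 264, mean 250), CYP71B24 (34.5 and 106, mean 72.5), CYP71B36 (17.4 and 30.1, mean 27.0) and CYP71B37 (13.85 and 15.4, mean 15.34). The count at 0.5 h was 3 without 0.5 h replicate 2, and that at 1 h was 5 without 1 h replicate 2. At 1 h 10 members, CYP71B36 among them, had an unadjusted p under 0.05, and all 10 lay below 0. The share of all probe sets at that threshold was not computed, so this count is only a description. CYP71B28 went furthest at 1 h, with -1.22 ± 0.16 (adjusted p = 2.33e-06), and CYP71B26 at 0.5 h, with -1.59 ± 0.14 (adjusted p = 8.98e-09). CYP71B36 passed at 1 h alone among these times (-0.90 ± 0.19, adjusted p = 0.000616), and whether its 1 h level differs from that at 0.25 and 0.5 h was not tested. The call of CYP71B26 at 1 h (-0.58 ± 0.14, adjusted p = 0.00236) ended without 1 h replicate 1 (adjusted p = 0.0715). The call of CYP71B28 at 0.25 h (-0.74 ± 0.16, adjusted p = 0.000929) ended without 0.25 h replicate 1 (adjusted p = 0.093).

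By later time, limma called 3 members lower early than at 3 h and 0 higher, with 19.8% of all probe sets tested lower and 13.1% higher. It called 6 lower than at 6 h and 0 higher (24.7% and 14.7% of all), and 7 lower than at 12 h and 0 higher (21.4% and 14.8%), or 6 of 11 leaving aside CYP71B36, which the 12 h group brought through the filter. These comparisons share the early arrays. The count against 3 h was 1 without 3 h replicate 1, that against 6 h was 3 and 2 without replicates 1 and 2 at 6 h, and that against 12 h was 3 without 12 h replicate 2. CYP71B5, CYP71B26 and CYP71B28 made up the calls against 3 h, and CYP71B26 was the only one of them that passed in all 36 alternatives. Without 3 h replicate 1 the adjusted p was 0.18 for CYP71B5 and 0.0919 for CYP71B28. Against 12 h, CYP71B6 (-1.24 ± 0.19) and CYP71B28 (-1.15 ± 0.16, adjusted p = 4.88e-06) passed in all 36 alternatives. The calls of CYP71B5, CYP71B22, CYP71B23 and CYP71B24 against 12 h ended without 12 h replicate 2, where the adjusted p-values were 0.0655, 0.511, 0.306 and 0.0553.

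The difference to 24 h in shoots, which led to the choice of the family, is given as a description. Early minus 24 h, the log2 differences of the 12 members lay between -1.62 and -0.23, with a median of -0.89 beside -0.07 for all probe sets tested. CYP71B36 had the largest difference (-1.62), followed by CYP71B23 (-1.25), CYP71B28 (-1.16) and CYP71B24 (-1.13). CYP71B22 and CYP71B29, at -0.33 and -0.23, had among the smallest. The 24 h arrays with the high actin ratio are the ones on which these values rest.

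The test over the 6 shoot times without 24 h called 9 of the 12 members changed, with 56.5% of all probe sets tested changed. It uses the early arrays that led to the choice of the family, so it is not independent of that choice. CYP71B36, 1 of the 9, passed the filter through 12 and 24 h alone, so the filter favours a change for it. CYP71B26 had the smallest adjusted p of the 9, 1.06e-10. CYP71B6, CYP71B24, CYP71B26 and CYP71B28 passed in all 36 alternatives, and CYP71B5 and CYP71B36 in all but log2(signal + 1), where the adjusted p-values were 0.251 and 0.19. CYP71B29 lost its call in 23 of 35 alternatives, with adjusted p-values of up to 0.443, reached without 1 h replicate 2. CYP71B34 lost it in 6 of 36, without shoots 0.25 h replicate 2 (0.0566), 1 h replicate 1 (0.0859) or 2 (0.0527), or 6 h replicate 2 (0.06), under quantile normalization (0.0588) and for log2(signal + 1) (0.0502). CYP71B22 lost it in 2, for log2(signal + 1) (0.0847) and without 6 h replicate 1 (0.0526). CYP71B24 thus changed over these times (adjusted p = 0.00297), and its lowest mean was at 1 h.

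Other measures moved with the early level in shoots, in both directions. Among the 5 shoot markers, SBPASE (0.41 ± 0.10, adjusted p = 0.00222) and LHCB4.2 (0.48 ± 0.11, adjusted p = 0.00152), genes of the Calvin cycle and of light harvesting, were higher early, and PRK, RCA and LHCB4.1 (0.04 to 0.22) did not pass. The summed signal of the 5 root markers was 618 to 843 on the early shoot arrays and 1233 to 1973 at 3, 6 and 12 h, against 3361 to 4567 on root arrays. PYK10, a beta-glucosidase of ER bodies, carried that sum, with 671 ± 71.8 early and 1447 ± 272 at 3, 6 and 12 h in shoots (SD, n = 6 each), a log2 difference of -1.08 ± 0.07 (adjusted p = 3.69e-11). The other 4 root markers, EXPA7, EXPA18, LBD16 and PRX72, had log2 differences of -0.06 to 0.12, none of which passed. PRX72, the weakest of the 5 in shoots, stayed at 0.363 to 4.99 on every shoot array. The actin ratios of the early arrays and of the arrays at 3, 6 and 12 h overlap, as do the GAPDH ratios, at 1.07 to 1.28 and 1.08 to 1.26. The clock gene GIGANTEA (GI) was lower early, with 61.7 ± 16.1 against 188.5 ± 148 at 3, 6 and 12 h, a log2 difference of -1.11 ± 0.11 (adjusted p = 4.42e-08), and had 0.17 ± 0.16 against 12 h (adjusted p = 0.449). GI was the only one of 9 clock genes on a probe set named here, and the part of the time of day in the CYP71B differences was not tested.

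In roots the same early times stood out little. The contrast of early against 3, 6 and 12 h called 1 member lower, CYP71B37, and 0 higher, with 5.63% of all probe sets tested called lower and 5.46% higher. The median difference of the 12 members was 0.07, beside -0.01 for all probe sets tested. No member had all 6 early root arrays outside all 6 later ones, beside 1.97% of all probe sets tested below and 1.67% above. Against 24 h the limma fit called 0 members in roots, where 0.0676% of all probe sets tested were lower and 0.123% higher. At an unadjusted p under 0.05 there were 2, CYP71B28 (-0.42 ± 0.16) and CYP71B5 (0.32 ± 0.12), and CYP71B5 is below the 40th percentile on all root arrays. The share of all probe sets at that unadjusted threshold was not computed.

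CYP71B37 had root signals of 145 and 133 at 0.25 h, 106 and 130 at 0.5 h, 136 and 115 at 1 h, 149 and 142 at 3 h, 174 and 148 at 6 h, 208 and 201 at 12 h, and 121 and 153 at 24 h. The 12 h arrays were the highest of the 14, and the early arrays overlap those at 3 h. The log2 difference of early against 3, 6 and 12 h was -0.38 ± 0.09 (adjusted p = 0.00503), and it passed in all 36 alternatives. In shoots CYP71B37 was weak, at 9.19 to 22.1 on all 14 arrays. It was called lower there at 0.5 h against 3, 6 and 12 h (-0.37 ± 0.12, adjusted p = 0.0199), a call that ended with shoot arrays alone (0.086) and without 0.5 h replicate 1 (0.0955) or 2 (0.127).

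CYP71B26 had root signals of 140 and 144 at 0.25 h, 139 and 114 at 0.5 h, 121 and 141 at 1 h, 172 and 175 at 3 h, 93.0 and 110 at 6 h, 62.0 and 70.0 at 12 h, and 138 and 172 at 24 h. The 3 h arrays were high and the 12 h arrays the lowest in roots, and the 6 h arrays were below all 6 early ones. Its early log2 difference in roots was 0.30 ± 0.10, with the opposite sign to shoots, and did not pass (adjusted p = 0.0548). It passed in 10 of 36 alternatives, 6 of which left out 1 array. The adjusted p was 0.0349 and 0.035 without shoots 0.25 h replicates 1 and 2, 0.0335 and 0.0334 without shoots 24 h replicates 1 and 2, and 0.0493 without either root array at 24 h.

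Over all 7 root times 4 members changed, CYP71B22, CYP71B26, CYP71B28 and CYP71B37, with 14.8% of all probe sets tested changed. The count was 2 without root 0.5 h replicate 1, 1 without root 12 h replicate 1 and 2 without root 12 h replicate 2. CYP71B26 (adjusted p = 0.000469) passed in all 35 alternatives. CYP71B37 (adjusted p = 0.0147) lost its call without root 12 h replicate 1 (0.112) or 2 (0.0816). CYP71B22 (adjusted p = 0.022) lost it without root 0.5 h replicate 1 (0.0753) and root 12 h replicates 1 (0.0644) and 2 (0.112), and its root signals stayed at 3.67 to 26.6. CYP71B28 (adjusted p = 0.0391) had root signals of 24.0 to 70.1 and lost its call in 18 of 35 alternatives, with adjusted p-values of up to 0.111.

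The difference between the organs was itself tested, with the same early shoot arrays that led to the choice of the family. The test is therefore not independent of that choice. The early against 3, 6 and 12 h difference was lower in shoots than in roots for 6 members and higher for 0, with 19.1% of all probe sets tested lower and 12.5% higher. CYP71B26 differed most, with -1.17 in shoots and 0.30 in roots, a difference of -1.48 ± 0.14 (adjusted p = 5.5e-08). CYP71B28 had -0.95 in shoots and 0.04 in roots, a difference of -0.98 ± 0.16 (adjusted p = 5.56e-05). The differences were -0.67 ± 0.19 for CYP71B6 (adjusted p = 0.00938), -0.63 ± 0.19 for CYP71B22 (adjusted p = 0.015), -0.56 ± 0.12 for CYP71B5 (adjusted p = 0.0013) and -0.48 ± 0.17 for CYP71B29 (adjusted p = 0.035). The call of CYP71B29 ended in 13 of 34 alternatives, with adjusted p-values of 0.0522 to 0.0804. These were quantile normalization and leaving out replicate 2 of shoots at 0.25, 1, 6 or 12 h, replicate 1 of shoots at 0.5 or 3 h, replicate 1 of roots at 0.25, 0.5, 3 or 12 h, or replicate 2 of roots at 1 or 6 h. CYP71B5 and CYP71B22 are weak in roots, where a change is understated. CYP71B6 has strong root signals, at 600 ± 111 early and 612 ± 134 at 3, 6 and 12 h (SD, n = 6 each).

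Shoots and roots differed in the level of all 12 tested members, and not in 1 direction. Over all times, 8 members were higher in shoots and 4 lower, with 31.3% of all probe sets tested higher and 56.9% lower. The median of the 12 was 1.40 (log2), beside -0.27 for all probe sets tested (1.54 and -0.16 after quantile normalization), and all 12 calls held under every alternative in which they were tested. The count includes the 6 members that passed the filter through 1 organ alone, 5 through shoots and CYP71B37 through roots, so it gives no support of its own. The sizes for members at or below the 40th percentile in 1 organ depend on the offset: with log2(signal + 1) the difference was 4.55 for CYP71B5, 3.24 for CYP71B35 and 3.10 for CYP71B36.

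**Figure D3:**
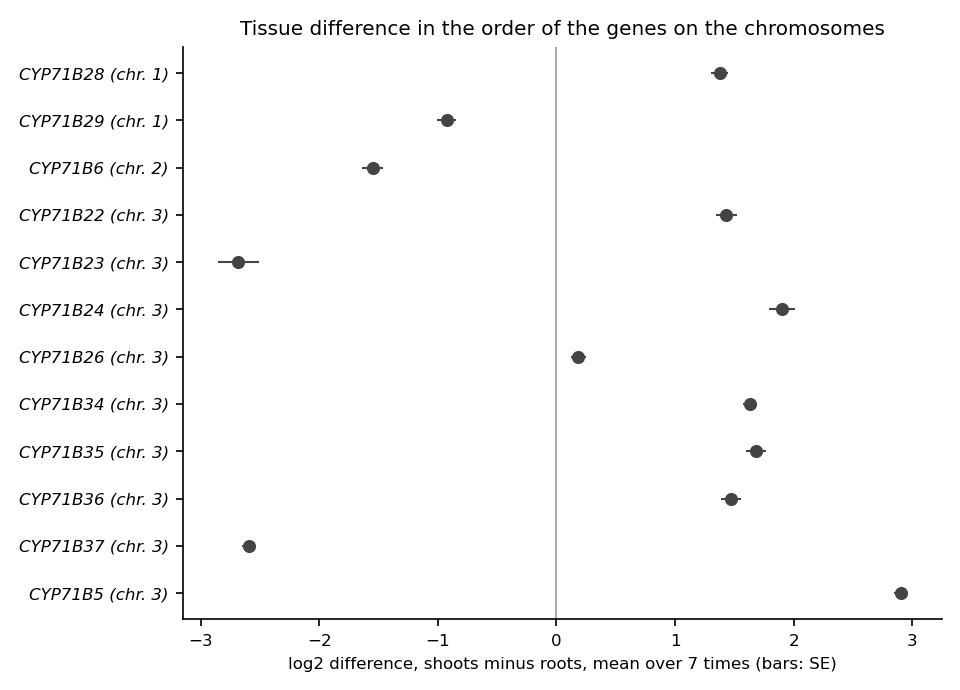
Log2 difference of shoots minus roots over all 7 times for the 12 tested CYP71B genes, from top to bottom in RefSeq's order along the chromosomes, with bars of 1 standard error. CYP71B5 (2.90) lies farthest to the shoot side and CYP71B23 (-2.68) and CYP71B37 (-2.60) farthest to the root side.

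CYP71B5 had the largest difference, at 96.4 ± 23.5 in shoots and 3.42 ± 1.88 in roots (mean signal and SD, n = 14 arrays each) and a log2 difference of 2.90 ± 0.06. All 14 shoot arrays, at 61.2 to 138, lay above all 14 root arrays, at 0.498 to 7.90. CYP71B5 passed the filter in shoots alone, and the share of all probe sets with such a separation was not computed. CYP71B24 was 70.4 ± 35.2 in shoots and 9.55 ± 3.89 in roots (1.90 ± 0.11), CYP71B34 was 140 ± 31.1 in shoots and 37.5 ± 7.05 in roots (1.63 ± 0.05), and CYP71B28 was 142 ± 55.2 in shoots and 45.5 ± 12.6 in roots (1.38 ± 0.07). CYP71B35 (1.68), CYP71B36 (1.47) and CYP71B22 (1.43) were also higher in shoots.

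The members on the root side included CYP71B6, which had 217 ± 93.2 in shoots and 619 ± 117 in roots, a log2 difference of -1.55 ± 0.09 (adjusted p = 2.32e-13). CYP71B23 had 36.4 ± 24.4 in shoots and 260.5 ± 47.5 in roots (-2.68 ± 0.17), and CYP71B37 had 15.3 ± 3.48 in shoots and 147 ± 29.8 in roots (-2.60 ± 0.06). CYP71B29, at 29.7 ± 8.18 in shoots and 64.9 ± 9.04 in roots, differed by -0.92 ± 0.08. For these 4 genes every root array lay above every shoot array. The share of all probe sets with such a separation was not computed, so this is only a description. CYP71B37 passed the filter in roots alone, so the filter favours the root side for it.

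CYP71B26 was close to even, with a difference of 0.19 ± 0.07 (adjusted p = 0.0123), and the order of the organs was not the same at all times. Its shoot signals of 62.5 and 90.4 at 0.25 h lay below the root signals of 140 and 144, and its shoot signals of 375 and 343 at 3 h lay above the root signals of 172 and 175. Single times were not tested between the organs.

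Direct neighbours could differ in the organ where they were high. On chromosome 3, CYP71B22 (1.43) and CYP71B23 (-2.68) have no gene between them in RefSeq's order, nor do CYP71B36 (1.47) and CYP71B37 (-2.60). CYP71B22 and CYP71B36 passed the filter in shoots alone and CYP71B37 in roots alone, so the filter favours the side on which they lie. CYP71B23, CYP71B28 and CYP71B29 passed in both organs. On chromosome 1, CYP71B28 (1.38) and CYP71B29 (-0.92) are likewise direct neighbours. CYP71B34, CYP71B35 and CYP71B36 follow each other on chromosome 3 and were all higher in shoots, with CYP71B35 and CYP71B36 below the 40th percentile in every root group. CYP71B26, with 1 gene between it and CYP71B34, differed from these in its time course, with its shoot peak at 3 h and its low level at 12 h.

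Among the 12 members, CYP71B26 had the largest spread of its 6 shoot group means from 0.25 to 12 h. Over those 12 shoot arrays, its correlation with the other members lay between -0.261 for CYP71B24 and 0.685 for CYP71B35. The 5 most similar of 8866 other probe sets with 1 gene were AT1G74940 (r = 0.959), AT3G50550 (r = 0.957), AT1G73470 (r = 0.955), AT1G13910 (r = 0.952) and AT5G64180 (r = 0.942). These are correlations over 12 arrays that share their 6 time points, given as a description. AT1G74940 had mean signals of 59.0, 56.9 and 117 at the 3 early times, and of 197, 219 and 80.9 at 3, 6 and 12 h. It thus was high at 3 and 6 h and low again at 12 h, as CYP71B26 was.

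**Figure D4:**
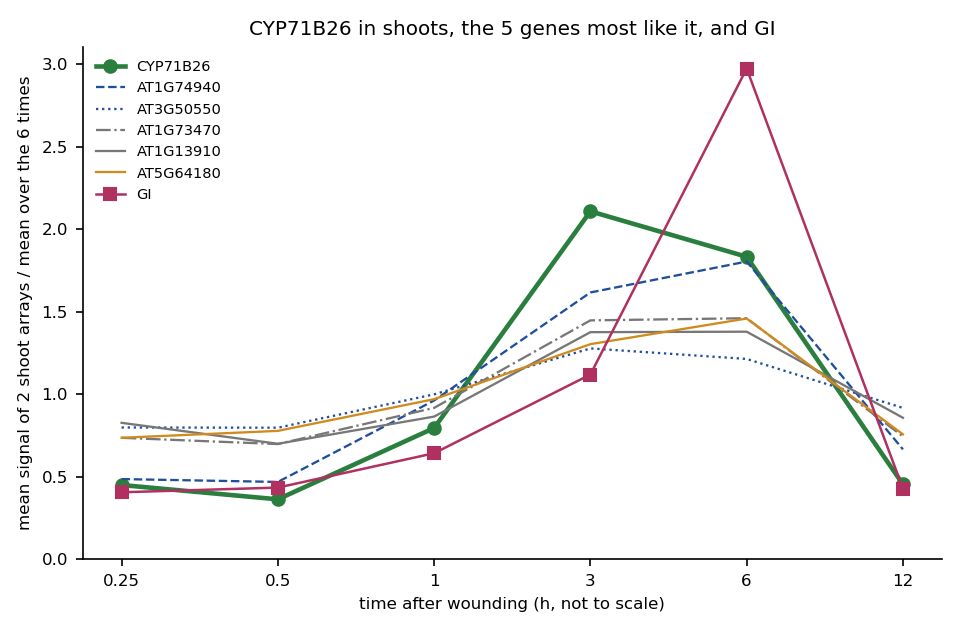
Mean signal of 2 shoot arrays divided by the gene's own mean over the 6 times from 0.25 to 12 h (vertical axis), against time after wounding, for CYP71B26, the 5 probe sets most similar to it, and GI. CYP71B26 and the 5 others are higher at 3 and 6 h than at 0.25, 0.5 and 12 h, and GI peaks at 6 h.

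Genes that work with the family could hardly be followed. Of 25 genes of indolic defence metabolism 2 were on named probe sets and tested. UGT74B1, a glucosyltransferase of glucosinolate synthesis, was higher early in shoots, with 596 ± 176 against 449 ± 46.0 at 3, 6 and 12 h (SD, n = 6 each), a log2 difference of 0.35 ± 0.11 (adjusted p = 0.0121). It did not pass without shoots 0.25 h replicate 1 or without 0.5 h replicate 2, where the adjusted p-values were 0.0613 and 0.0615. FOX1, an oxidase that uses an indole substrate, had 0.38 ± 0.29 (adjusted p = 0.306). Of 10 genes listed as possible electron partners of P450 enzymes 1 was tested, the flavin reductase ATR3, with 0.03 ± 0.10 (adjusted p = 0.832). Whether ATR3 passes electrons to CYP71B enzymes was not tested. Outside CYP71B, 4 P450 probe sets had 1 gene with a symbol of that form and 2 were tested. In the same comparison CYP84A4, an enzyme of arabidopyrone synthesis, had 0.06 and CYP78A9, which affects fruit growth, had -0.20, and neither passed, so no comparison with other P450 families is drawn.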

How the data were processed

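The authors deposited intensity values on a linear scale, produced by MAS5 according to the submitters' processing notes. The version of MAS5 and the genome build are not given in the sources used here. The mean signal of every array, with the extreme 2% at each end left out, was 100.007 to 100.01, so arrays were used as scaled by the authors.

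After 64 control probe sets were left out, 16263 of 22746 probe sets passed the filter. Signals were analysed in R 4.3.3 with limma 3.58.1 as log2(signal + 10.7), where 10.7 is the 25th percentile of the whole table. Each organ and time had its own mean over 28 arrays, leaving 14 residual degrees of freedom, and eBayes used its trend and robust options. Benjamini-Hochberg adjustment ran over all 16263, with calls under 0.05. The fit was also run on simulated data with independent noise on each array, which real arrays need not have, and no result here rests on that run.

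Members, gene lists and tests were chosen with earlier results of these data known. Every member is accounted for. Other genes come from the lists, or are the 5 most similar to the member with the largest spread of shoot group means. Names come from the platform annotation, updated through Entrez to TAIR10.1. It gives 1 gene to 13513 probe sets and several to 503, and leaves 8730 unnamed. No coordinates or sequences are given. Alternatives were log2(signal + 1), quantile normalization, a filter at the 60th percentile or none, plain eBayes, a replicate block, arrays of the same organ alone, no 24 h arrays, and each array left out in turn.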

Additional observations from a re-analysis of the deposited data

Results flagged for a closer look

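For 6 members the early difference (0.25, 0.5 and 1 h against 3, 6 and 12 h) in shoots was tested against that in roots and differed. This test uses the early shoot arrays that led to the choice of the family, so it is not independent of that choice. Shoots minus roots, the values were -1.48 for CYP71B26, -0.98 for CYP71B28, -0.67 for CYP71B6, -0.63 for CYP71B22, -0.56 for CYP71B5 and -0.48 for CYP71B29 (log2). The call of CYP71B29 ended in 13 of 34 alternatives, while the other 5 passed in all 35. The root marker PYK10 was also lower early in shoots, by -1.08 (log2), and its part in these differences was not tested.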

How the results depend on the processing

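No call of a member was turned round under the alternatives run, but CYP71B23 in shoots at 0.25 h, which was not called, had 0.72 without 0.25 h replicate 1 and -1.48 without replicate 2. For CYP71B6, CYP71B24, CYP71B36 and CYP71B37, also not called at 0.25 h, the 2 arrays lay on either side of the mean signal at 3, 6 and 12 h. The number of members called lower early in shoots was 8 and stayed between 6 and 10 when 1 array was left out. Leaving out 1 array gave 1 to 2 calls for roots early against 3, 6 and 12 h, 1 to 6 for roots over 7 times, 3 to 6 for shoots at 0.5 h, 5 to 9 for shoots at 1 h, 1 to 4 for shoots early against 3 h, 2 to 8 against 6 h and 3 to 8 against 12 h. Roots early against 3, 6 and 12 h had 2 calls, CYP71B37 lower and CYP71B26 higher, under quantile normalization, the 60th percentile filter, root arrays alone and without the 24 h arrays, as well as without either shoot array at 0.25 or 24 h or either root array at 24 h. Shoots early against 6 h had 3 calls under quantile normalization. With log2(signal + 1), shoots at 0.25 h had 3 calls and shoots early against 12 h had 4. With no filter the median early difference to 24 h in shoots was -0.33 over all 19 members, where the 7 weak members are added. The cause of the other shifts was not tested.

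Samples that share a replicate number deviated together little: the correlations of their deviations lay between -0.225 and 0.182 in shoots and between -0.277 and 0.19 in roots. The medians were 0.0423 in shoots and 0.00371 in roots, and 3 of 21 pairs of groups in shoots and 6 of 21 in roots were over 0.1. With the replicate number as a block, 9 members were lower early in shoots, CYP71B24 being added (adjusted p = 0.0469), 3 changed over 7 root times, without CYP71B28, and 8 over 6 shoot times, without CYP71B29. The block changed no other call of a member.

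The number of arrays and the weak signals near the 40th percentile, such as those of CYP71B29 and CYP71B36, limit what can be seen.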
